A study of Mus musculus with 52 samples.

Results

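The mouse mitochondrial genome carries 37 genes, and these were taken as the gene rows whose symbol starts with mt-, which gave 37 of the 55401 mouse gene rows in the count table. They were 13 mRNAs, 2 rRNAs (mt-Rnr1, the 12S RNA of the small mitochondrial ribosomal subunit, and mt-Rnr2, the 16S RNA of the large one) and 22 tRNAs. All lie on chromosome M of the GRCm38 build, between positions 1 and 15422. The symbol chose them and no measured value did.

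Libraries of poly(A) RNA were made from muscle, spinal cord and cerebral cortex of mice on the FVB/NJ background. The amiR group were PFN1_C71G mice that had received amiR_ATXN2, an adeno-associated virus carrying an artificial microRNA against Atxn2 (6 libraries in each of the 3 tissues). The Tg group were PFN1_C71G mice given vehicle (6 spinal cord, 6 cortex and 5 muscle libraries), and the WT group were wild-type FVB mice given vehicle (6 spinal cord, 5 cortex and 6 muscle libraries). The transgene encodes mutant profilin 1, an actin-binding protein whose mutation causes familial amyotrophic lateral sclerosis, and Atxn2 encodes an RNA-binding protein. All WT mice were 36 weeks old, and 11 of the transgenic libraries came from mice of 38 or 39 weeks. No group received a virus without the microRNA, so virus and microRNA cannot be told apart, and the labels did not name the promoter of the transgene or say which tissues came from the same animal.

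Both strands of mitochondrial DNA are transcribed from the control region as long precursors. The tRNAs punctuate most of the mRNAs and rRNAs and are cut out of the precursor, which releases the RNAs between them. Most of the mRNAs then receive a poly(A) tail, the rRNAs only a short one, and mature tRNAs end in CCA with no tail. The 13 proteins are core subunits of respiratory complexes I, III and IV and of ATP synthase, and the rRNAs build the ribosome that translates them. Motor neurons and muscle fibres depend on this respiration. Selection for poly(A) RNA therefore recovers the 3 classes unevenly, and the counts compare one RNA between libraries rather than measure the true amounts of mRNA, rRNA and tRNA.

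Depth was 66.5 M to 111.9 M expected counts per library (M, counts in units of 1e6) over the 52 libraries, and RNA integrity numbers were 7.1 to 8.3. Human PFN1 averaged 849 CPM (counts per 1e6 counts of the library) in amiR and 687 CPM in Tg spinal cord, and was at most 0.0143 CPM in any WT library. Atxn2 averaged 72.5 CPM in amiR and 109.9 CPM in Tg spinal cord, a log2 difference of -0.55 (SE 0.03, edgeR adjusted p = 8.14e-08). The log2 difference in Atxn2 between amiR and Tg was -0.27 in cortex (SE 0.07, adjusted p = 0.187) and 0.04 in muscle (SE 0.06, adjusted p = 0.757). In 4 spinal cord libraries (Tg replicates 5 and 6, amiR replicates 1 and 2) the library name gave the other treatment than the title, and titles were used. By title, the vector element WPRE was at 36.5 to 77.7 CPM in all 6 amiR and at 0 in all 6 Tg cord libraries, and Atxn2 was at 68.2 to 77.6 CPM in amiR and 106 to 115 CPM in Tg cord, with no overlap in either measure. The defining myofibre markers summed to 87670 to 123065 CPM in muscle, and neuron markers were at 1.19 to 4.82 CPM there.

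The tRNAs were close to absent from these libraries. They are 59 to 75 bases long, shorter than the 100-base reads, and together held 28 to 200 counts per library. mt-Tr and mt-Tt had no count in any library, which allows up to 0.000682 CPM over all 52 libraries pooled (3 counts, counting error only). The other 20 had at least 1 count in some library, but only 3 passed the filter on low counts, and those 3 held 81.5% of all tRNA counts. mt-Ts1, the serine tRNA for UCN codons, had 1639 counts in all, and it alone reached 1 CPM, in 1 amiR muscle library at 1.31 CPM. mt-Tm, the methionine tRNA, had 898 counts and mt-Tl1, the leucine tRNA for UUR codons, had 767. mt-Ts1 lies on the minus strand and its end is shared with that of mt-Co1 over 3 bases, mt-Tm follows 2 further tRNAs after mt-Nd1, and mt-Tl1 sits directly between mt-Rnr2 and mt-Nd1. Whether these counts are tRNA or unprocessed precursor was not tested. The 3 genes are printed whole because nothing else of the class gave a usable count, with mt-Ts1 in its own sense (chrM:6870-6938, minus strand), mt-Tm at chrM:3845-3913 (plus strand) and mt-Tl1 at chrM:2676-2750 (plus strand); these and all sequences here are GENCODE M21 transcripts on GRCm38.
mt-Ts1: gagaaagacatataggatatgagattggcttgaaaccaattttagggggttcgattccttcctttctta
mt-Tm: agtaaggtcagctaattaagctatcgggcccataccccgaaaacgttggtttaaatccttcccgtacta
mt-Tl1: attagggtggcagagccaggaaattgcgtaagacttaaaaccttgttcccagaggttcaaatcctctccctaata

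The mRNA ends show how closely the tail belongs to these messages. Of the 13 coding sequences, 10 end in a whole stop codon and 3 (mt-Co3, mt-Nd4 and mt-Cytb) end in a single T of an incomplete one, which the tail completes to UAA in the mature message. The last 24 bases of a complete and of the 3 incomplete ends follow, with the stop codon or its first base in capitals (mt-Co1 chrM:6849-6872, mt-Co3 chrM:9367-9390, mt-Nd4 chrM:11521-11544, mt-Cytb chrM:15265-15288, all plus strand).
mt-Co1: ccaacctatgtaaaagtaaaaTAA
mt-Co3: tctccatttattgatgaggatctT
mt-Nd4: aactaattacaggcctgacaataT
mt-Cytb: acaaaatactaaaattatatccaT
The rRNAs have no coding end. Their longest internal runs of A are shown because oligo-dT can also bind such runs: 5 bases in mt-Rnr1 (chrM:693-721) and 7 in mt-Rnr2 (chrM:1476-1506), in capitals, against longest runs of 3 to 8 bases in the mRNAs. How much of the rRNA signal came from tails or from internal runs was not tested.
mt-Rnr1: tcagcaaaccctAAAAAggtattaaagta
mt-Rnr2: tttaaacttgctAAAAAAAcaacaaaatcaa

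Several mRNAs overlap, and the counts of their shared bases cannot be assigned to one of them. The largest overlap is that of mt-Atp8 and mt-Atp6, the membrane subunits of ATP synthase that are translated from one message: 43 bases (chrM:7927-7969). It is shown from 10 bases before (chrM:7917-7969, plus strand), with capitals from the mt-Atp6 start codon to the mt-Atp8 stop codon.
mt-Atp8/mt-Atp6: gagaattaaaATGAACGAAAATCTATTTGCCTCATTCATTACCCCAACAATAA
mt-Nd4l and mt-Nd4 share 7 bases in the same way. mt-Nd5 and mt-Nd6 share 14 bases on opposite strands, and mt-Nd6 is the only mRNA read from the minus strand. Whether counting used strand was not given in the sources used here, so reads from mt-Nd6 and from RNA antisense to it cannot be told apart. How fully poly(A) selection recovered mt-Nd6 was not tested.

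Reads that match 7 of the mRNAs were also counted on another chromosome, in 5 of them in large part. The nuclear genome holds copies of mitochondrial DNA, and one of them, chr1:24611535-24616197 (4663 bases, GRCm38), carries 7 pseudogene rows that match mt-Co1, mt-Co2, mt-Atp6, mt-Co3, mt-Nd3, mt-Nd4l and mt-Nd4 at 99.71% to 100% identity. In all, 11 nuclear rows matched a member at 95% identity or more over at least 50% of the row, and the 7 on chromosome 1 held 99.98% of their counts. Reads of such genes are split by the estimation step of the counting, so a level of these members on their own row is uncertain.

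The split was far from even. Gm10925, the copy of mt-Atp6, held a median of 82.8% of the counts of the pair over the 52 libraries (78.8% to 87.6%). Gm28438 held 86.5% of the pair with mt-Nd3 (80.8% to 89.1%), Gm10222 held 74.4% with mt-Nd4l (64.0% to 77.2%), and Gm28661 held 71.3% with mt-Co2 (65.8% to 78.1%). The mt-Co3 pair was the least stable, with 53.7% on Gm28437 and a range of 43.6% to 71.6%. Gm29216 took 4.43% from the pair with mt-Co1, of which it matches 31.26%, and Gm28439 took 0.358% from that with mt-Nd4. The rRNAs, mt-Nd1, mt-Nd6, mt-Cytb and mt-Atp8 matched no row by this rule, and mt-Nd2 and mt-Nd5 matched one whose counts were near 0. The search covered annotated transcripts only. A copy without a row, for instance of mt-Atp8 between those of mt-Co2 and mt-Atp6, was not examined.

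**Figure D1:**
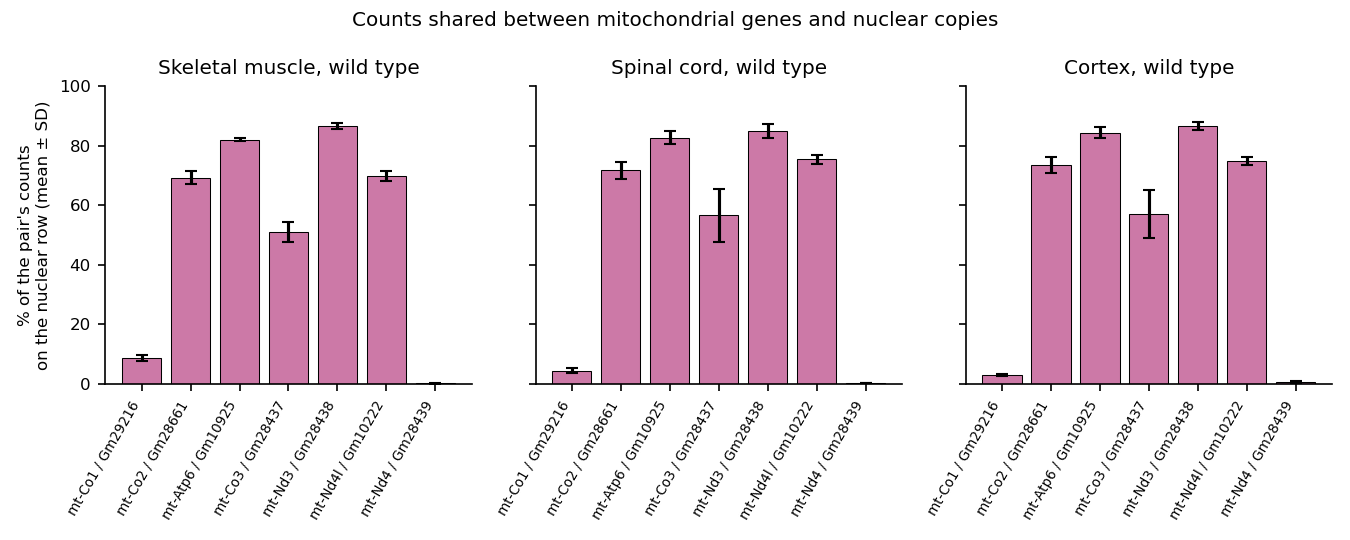
Percent of each pair's counts placed on the nuclear pseudogene row (vertical axis) in WT libraries of muscle, spinal cord and cortex. Bars are group means with SD, for the 7 mt- genes with a near-identical row on chromosome 1 (horizontal axis). In WT muscle the copies of mt-Nd3 and mt-Atp6 sit highest, at means of 86.5% and 82.0%, and that of mt-Nd4 lies near 0.

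Levels per length on the mt- rows alone ran in nearly one order in the 3 tissues. In WT muscle mt-Co1, the catalytic subunit of complex IV, averaged 38960 ± 2204 CPM per kb of gene length (SD, n = 6), and no other member came near it. mt-Cytb of complex III followed at 22736 ± 1092 and mt-Nd1 of complex I at 20960 ± 1130, and these overlapped. mt-Nd3 at 802 ± 72 and mt-Nd6 at 718 ± 48.4 overlapped at the bottom. In WT spinal cord the same members led and closed the order, with mt-Co1 at 16025 ± 737, mt-Cytb at 8672 ± 572, mt-Nd1 at 8535 ± 429, mt-Nd3 at 272 ± 42.1 and mt-Nd6 at 263 ± 63.0 CPM per kb (SD, n = 6 each). In WT cortex mt-Co1 stood at 16839 ± 511 and mt-Cytb at 9218 ± 272, and mt-Nd6 at 349 ± 28.3 overlapped mt-Nd3 at 276 ± 24.3 (SD, n = 5).

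Adding the nuclear rows changed this order below mt-Co1. On that scale, still CPM per kb, mt-Atp6 in WT muscle averaged 30552 ± 1561 in place of 5500 ± 274, mt-Co3 averaged 30293 ± 1525 in place of 14837 ± 1258, and mt-Co2 averaged 30123 ± 1858 in place of 9286 ± 1071 (SD, n = 6). These 3 then overlapped each other and stood above mt-Cytb. mt-Nd4l, a complex I subunit that shares a message with mt-Nd4, was at 2907 ± 154 on its own row and at 9618 ± 418 with the copy, beside 16657 ± 673 for mt-Nd4. With its copy mt-Nd3 averaged 5980 ± 702 in WT muscle, above both rRNAs. It averaged 1813 ± 96.5 in WT spinal cord and 2072 ± 147 in WT cortex (SD, n = 6 and 5). In each tissue mt-Nd3 then no longer overlapped mt-Nd6, which alone stayed at the bottom.

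**Figure D2:**
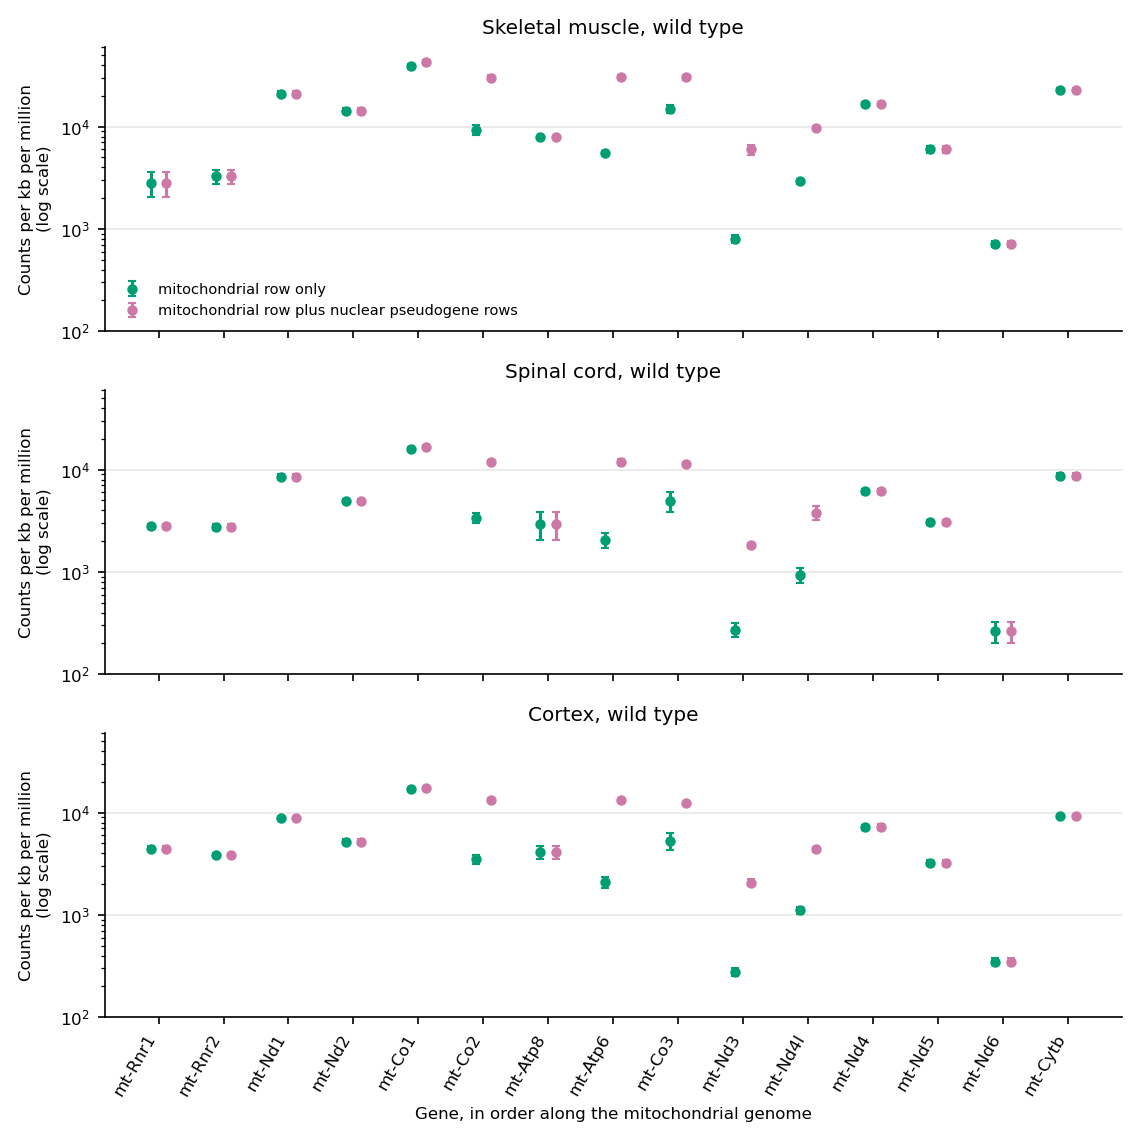
Level of the 13 mRNAs and 2 rRNAs (log axis, CPM per kb) in WT libraries of muscle, spinal cord and cortex, on the mt- rows alone and with the near-identical nuclear rows added. Points are group means with SD. mt-Co1 leads in each tissue, at 38960 in muscle, 16025 in spinal cord and 16839 in cortex on its own row.

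The rRNAs did not keep one place in the order of the 3 tissues, though mt-Rnr2 ranked 11 in both WT muscle and WT spinal cord. mt-Rnr1 averaged 2822 ± 764 CPM per kb in WT muscle, 2811 ± 157 in WT spinal cord and 4450 ± 267 in WT cortex. mt-Rnr2 averaged 3277 ± 517 in WT muscle, 2739 ± 196 in WT spinal cord and 3862 ± 208 in WT cortex (SD, n = 6, 6 and 5). Set against the mRNAs of the same library, rRNA counts per 100 counts of mitochondrial mRNA were 4.37 ± 0.739 in WT muscle, 9.94 ± 0.663 in WT spinal cord and 13.7 ± 0.525 in WT cortex, and the ranges of the 3 tissues did not overlap.

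Between WT tissues, 17 of the 18 members that passed the filter were called higher in muscle than in spinal cord. In the joint edgeR model 85.8% of the 22316 genes changed, so the number called is near the share of all genes. Over all genes 8247 were higher and 10900 lower. The log2 difference for muscle minus spinal cord was 2.54 for mt-Co1 (SE 0.13), 2.89 for mt-Nd4l (SE 0.14) and 2.23 for mt-Nd5 (SE 0.10), the highest and lowest of the mRNAs being the last pair. It was smaller for the rRNAs, at 1.26 for mt-Rnr1 (SE 0.14) and 1.52 for mt-Rnr2 (SE 0.11), and mt-Tm did not pass. These sizes depend on scaling: without TMM the median of all genes moved to -1.59, against -0.35 with it, mt-Co1 was at 1.28 and mt-Rnr1 at -0.0054, and mt-Tm fell by 1.17. Without TMM 15 members were called higher and 1 lower. In WT spinal cord against WT cortex 4 members were lower, in a comparison where 60.9% of genes changed: mt-Rnr1 (-0.67, SE 0.14, edgeR adjusted p = 5.48e-05), mt-Rnr2 (-0.51, SE 0.12, adjusted p = 0.000197), mt-Atp8 (-0.54, SE 0.20, adjusted p = 0.0163) and mt-Nd6 (-0.47, SE 0.15, adjusted p = 0.005). The other 14 did not pass, and the count was also 4 without TMM.

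As a share of all counts, the 37 genes made up 19.5 ± 2.20% in amiR, 17.98 ± 2.19% in Tg and 18.8 ± 0.880% in WT muscle (SD). In spinal cord the shares were 8.99 ± 1.58% in amiR, 7.55 ± 0.561% in Tg and 7.77 ± 0.380% in WT mice. In cortex they were 8.27 ± 1.09% in amiR, 8.92 ± 1.24% in Tg and 8.59 ± 0.304% in WT mice. The groups overlapped in every tissue. The spread was wider in both transgenic groups than in WT muscle and cortex, and in spinal cord amiR replicates 2 and 4 stood highest, at 11.8% and 9.97%, above every Tg library (highest 8.44%) and every WT library (highest 8.39%). In muscle the 2 female Tg libraries had 14.6% and 17.0% and the 3 male ones 19.2% to 19.8%, while the WT sexes overlapped. Sex was a term in each test because the sexes were mixed in each group. That term takes the sex difference as equal in all groups, so it does not account for one seen in Tg alone.

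**Figure D3:**
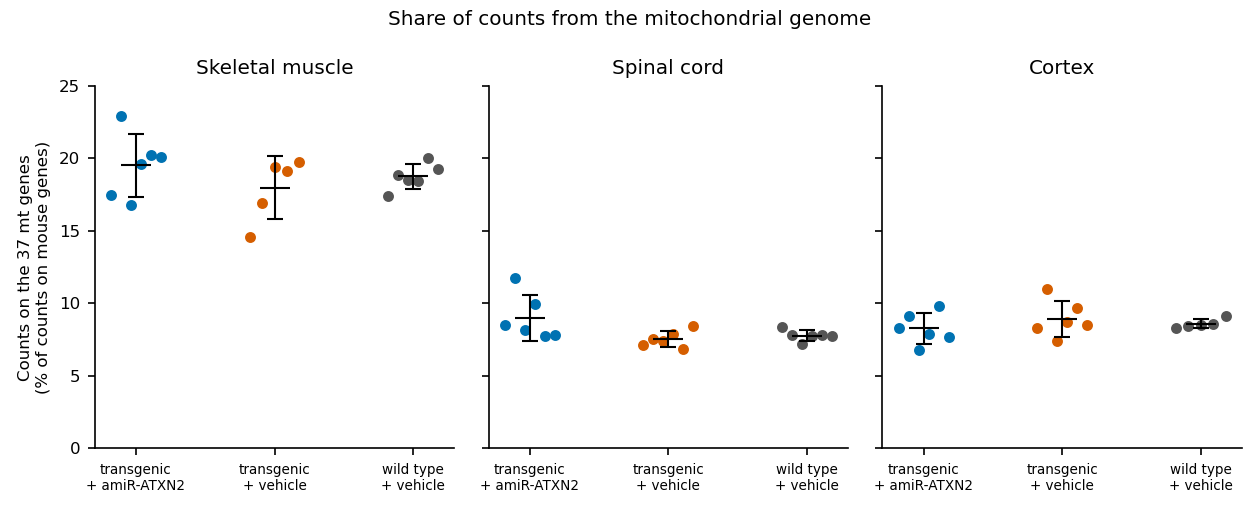
Percent of a library's counts on the 37 mt- rows (vertical axis) by tissue and group, 1 point per library with the group mean and SD. Muscle lies at 14.6% to 22.9% and both nervous tissues lie lower, with amiR spinal cord replicate 2 at 11.8%.

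In muscle, the transgene went with lower mitochondrial RNA relative to the bulk of other genes. Of 18 members tested, 12 were lower in Tg than in WT muscle and none higher (13 at an unadjusted p under 0.05), where 50.5% of all 16949 genes changed and 24.8% were lower. The median log2 difference was -0.39 over the members and 0.01 over all genes. The rRNAs moved furthest. Values below are CPM on TMM-scaled library sizes, in replicate order, and adjusted p-values are from edgeR's quasi-likelihood test over all genes.

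mt-Rnr1 had 1243, 1411, 1747, 1117 and 1390 CPM in the 5 Tg libraries, against 1886 to 4538 CPM (median 2925) in the 6 WT libraries. Every Tg library lay below every WT library. The log2 difference was -1.15 (SE 0.18, adjusted p = 6.64e-05), that is, mt-Rnr1 fell by 55%. mt-Rnr2 had 2767, 3233, 3986, 3158 and 3861 CPM in Tg, against 4014 to 7426 CPM (median 5892) in WT muscle, again with no overlap, though Tg replicate 3 and WT replicate 1 nearly met. Its log2 difference was -0.81 (SE 0.13, adjusted p = 6.88e-05).

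**Figure D4:**
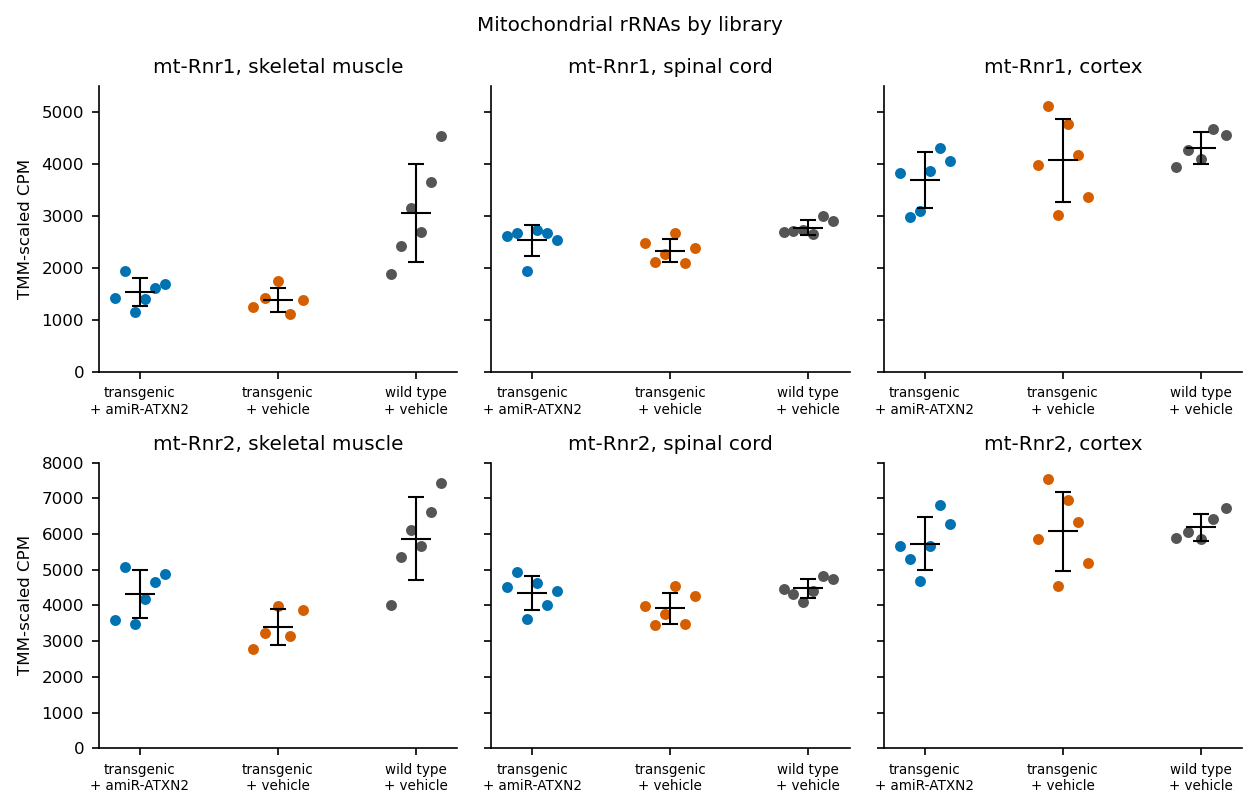
CPM on TMM-scaled library sizes of mt-Rnr1 and mt-Rnr2 (vertical axis) in each library of muscle, spinal cord and cortex, by group, with the group mean and SD. In muscle the Tg libraries of mt-Rnr1 lie at 1117 to 1747 and the WT libraries at 1886 to 4538, while the groups overlap in cortex.

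Among the complex I subunits, mt-Nd1, mt-Nd2 and mt-Nd3 separated the groups. mt-Nd1, which lies at the joint of the membrane and matrix arms, had 11667, 14110, 16106, 15955 and 18217 CPM in Tg and 18459 to 24700 CPM (median 23365) in WT muscle, a log2 difference of -0.60 (SE 0.12, adjusted p = 0.0004). mt-Nd2, a proton-pumping subunit, had 8593, 9926, 12480, 12292 and 13632 CPM in Tg and 14077 to 18344 CPM in WT muscle (-0.58, SE 0.12, adjusted p = 0.000622). mt-Nd3 had 159, 238, 195, 239 and 253 CPM in Tg and 266 to 367 CPM in WT muscle (-0.56, SE 0.12, adjusted p = 0.00105). In none of these did a Tg library reach the lowest WT library. mt-Nd3 holds only a small part of the reads of its sequence, and with the nuclear copy added its difference was -0.63 (SE 0.12, adjusted p = 0.000332).

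The other 7 members called lower had overlapping groups. Complex IV was represented by mt-Co3 (-0.53, SE 0.16, adjusted p = 0.0101), mt-Co2 (-0.50, SE 0.16, adjusted p = 0.0174) and mt-Co1 (-0.37, SE 0.13, adjusted p = 0.0234). For mt-Co1, Tg libraries ran from 40639 to 59907 CPM and WT libraries from 56930 to 76336 CPM. The ATP synthase subunits were lower as well, mt-Atp6 at -0.41 (SE 0.14, adjusted p = 0.0268) and mt-Atp8 at -0.34 (SE 0.12, adjusted p = 0.0226). mt-Nd4 differed by -0.32 (SE 0.10, adjusted p = 0.0141) and mt-Cytb, the only complex III subunit encoded here, by -0.31 (SE 0.10, adjusted p = 0.0212). Of the other complex I members 3 did not pass: mt-Nd6 (-0.32, adjusted p = 0.058), mt-Nd4l (-0.27, adjusted p = 0.0932) and mt-Nd5 (-0.18, adjusted p = 0.107). mt-Nd4l passed once its nuclear copy was added (-0.36, SE 0.10, adjusted p = 0.0057). The tRNAs mt-Tl1, mt-Tm and mt-Ts1 did not pass (-0.67, SE 0.45, -0.33, SE 0.43, and -0.17, SE 0.33).

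How many were called depended on the scaling. With library totals alone, 4 members were lower, mt-Rnr1 (-0.81, SE 0.16, adjusted p = 0.000375), mt-Rnr2 (-0.47, SE 0.10, adjusted p = 0.000862), mt-Nd1 (-0.27, SE 0.09, adjusted p = 0.0164) and mt-Nd2 (-0.25, SE 0.10, adjusted p = 0.0337). On that scale the median of all genes stood at 0.35, and mt-Nd4, mt-Nd4l, mt-Nd5, mt-Nd6 and mt-Cytb lay between 0.01 and 0.15, above 0, as did the tRNA mt-Ts1 at 0.16. The rRNAs, mt-Nd1 and mt-Nd2 were thus lower on both scales, and the other 8 members called under TMM lost the call with library totals alone, at -0.22 (mt-Nd3) to 0.03 (mt-Cytb). With the RNA integrity number as a covariate 5 members were called, without sex 7, and without Tg replicate 1 also 7; mt-Rnr1, mt-Rnr2, mt-Nd1 and mt-Nd2 were called in the fits with the integrity number and without sex.

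Other markers moved in the same comparison. Summed myofibre markers were 87670 to 97309 CPM in Tg and 110507 to 123065 CPM in WT muscle, and of the 10 in the list 3 were higher and 6 lower. Summed stroma and immune markers were 1106 to 2104 CPM in Tg and 243 to 753 CPM in WT muscle, with 7 of 9 higher. All 8 genes of the microglia list, several of them shared with macrophages, were higher. Of all genes tested in this comparison, 50.5% changed and 24.8% were lower. Integrity numbers averaged 7.70 ± 0.28 in Tg and 7.45 ± 0.27 in WT muscle. The part of these in the mitochondrial differences was not tested, and in bulk tissue fewer cells of a type and less RNA per cell cannot be told apart.

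Treated muscle was set against Tg and against WT muscle, 2 comparisons that share the amiR libraries. Almost no vector RNA was counted there. WPRE was at 0.0097 to 0.0505 CPM in amiR muscle (mean 0.0303), against means of 52.3 CPM in amiR spinal cord and 41.9 CPM in amiR cortex. Against Tg muscle, 1 of 18 members was called, mt-Atp8, with 10 at an unadjusted p under 0.05 and 1.12% of all genes called. It had 1557 to 2559 CPM (median 2103) in amiR muscle, and 1170, 1164, 1557, 1563 and 1890 CPM in Tg muscle. The groups overlapped, and the log2 difference was 0.55 (SE 0.12, adjusted p = 0.0365). The call ended without sex, without mice older than 36 weeks, and without any one of Tg replicates 1 to 4 and amiR replicates 2 to 6, while 3 members were called without WT replicate 3. mt-Rnr2 was higher by 0.37 (SE 0.13, adjusted p = 0.13) and mt-Nd2 by 0.41 (SE 0.12, adjusted p = 0.0828), neither past the threshold, and mt-Rnr1 differed by 0.18 (SE 0.18, adjusted p = 0.613). All 18 differences were above 0, with a median of 0.36, except that mt-Nd4l stood at -0.0030 with library totals alone.

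Against WT muscle, the rRNAs of amiR mice were lower and edgeR with TMM called no mRNA, where 35.2% of all genes changed. DESeq2 also called mt-Nd1 lower (-0.25, adjusted p = 0.0377). mt-Rnr1 had 1147 to 1938 CPM (median 1522) in amiR muscle and 1886 to 4538 CPM (median 2925) in WT muscle, and amiR replicate 2 alone reached above the lowest WT library. The difference was -0.97 (SE 0.17, adjusted p = 0.000331). mt-Rnr2 had 3490 to 5075 CPM in amiR and 4014 to 7426 CPM in WT muscle (-0.44, SE 0.12, adjusted p = 0.00949). With library totals alone mt-Rnr1 was the only member called lower (-0.77, SE 0.15, adjusted p = 0.000746), mt-Rnr2 lost its call (-0.23, SE 0.10, adjusted p = 0.0642), and mt-Atp8 (0.41), mt-Nd5 (0.20) and mt-Ts1 (0.80) were called higher. mt-Rnr2 also lost its call with the integrity number as a covariate, and 4 members were lower without amiR replicate 2. The median over the members was -0.11, and 3 had an unadjusted p under 0.05. Summed stroma and immune markers averaged 668 CPM in amiR, 1329 CPM in Tg and 510 CPM in WT muscle, and their part was not tested.

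To see the balance among the mitochondrial RNAs themselves, each was tested relative to the summed 13 mRNAs. Each mRNA is part of that sum, so when some mRNAs fall relative to it others must rise. rRNA per 100 counts of mRNA was 2.96 to 3.31 in amiR, 2.60 to 3.36 in Tg and 3.42 to 5.64 in WT muscle, so that both transgenic groups lay below every WT library. In the fit on this scale mt-Rnr1 was lower in Tg than in WT muscle (-0.74, SE 0.15, adjusted p = 0.000507), and so was mt-Rnr2 (-0.40, SE 0.09, adjusted p = 0.000791), where 58.5% of all genes changed. mt-Nd1 (-0.20, SE 0.05, adjusted p = 0.00391) and mt-Nd2 (-0.19, SE 0.06, adjusted p = 0.00717) were also lower, and mt-Nd5 was higher relative to the sum (0.21, SE 0.07, adjusted p = 0.0213). Under TMM the mt-Nd5 difference was negative and not called, so here it fell less than the sum. Between amiR and WT muscle mt-Rnr1 differed by -0.85 (SE 0.14, adjusted p = 0.00027), mt-Rnr2 by -0.31 (SE 0.08, adjusted p = 0.011) and mt-Atp8 by 0.33 (SE 0.07, adjusted p = 0.00283), where 23.0% changed. Between amiR and Tg muscle none of the 18 passed (2 at an unadjusted p under 0.05), where 2.72% of genes changed.

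The muscle difference between Tg and WT varied along the genome. Over the 12 mRNAs of the plus strand, the log2 difference and the gene's start position had a Pearson r of 0.69 and a Spearman rho of 0.76. The order was not strict. mt-Nd1 and mt-Nd2, nearest the rRNAs, were lowest, but mt-Co1, the next mRNA, was less reduced than mt-Co2, mt-Co3 and mt-Nd3 beyond it. mt-Nd1 (chrM:2751-3707) and mt-Nd2 (chrM:3914-4951) were at -0.60 and -0.58, and mt-Nd5 (chrM:11742-13565) and mt-Cytb (chrM:14145-15288) at -0.18 and -0.31. The points share the same 11 libraries and come from one precursor, so this is a description. With the nuclear copies added r was 0.65 and rho 0.69. In spinal cord r was 0.23 and rho 0.47 (0.34 and 0.71 with the copies), and in cortex r was 0.35 and rho 0.37 (0.44 and 0.55 with the copies). For amiR minus WT muscle r was 0.34 and rho 0.55, and for amiR minus Tg muscle r was -0.44 and rho -0.52.

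In spinal cord the transgene changed little of the mitochondrial RNA. Of 18 members, only mt-Rnr1 was called lower in Tg than in WT cord (3 at an unadjusted p under 0.05), where 36.8% of all 20307 genes changed. It had 2087 to 2672 CPM (median 2317) in Tg and 2644 to 2995 CPM (median 2711) in WT cord. The groups touched through Tg replicate 4, and the difference was -0.25 (SE 0.08, adjusted p = 0.0156). mt-Rnr2 was at -0.19 (SE 0.08, adjusted p = 0.0668) and mt-Nd3 at -0.34 (SE 0.15, adjusted p = 0.0883). The median over the members was -0.08. The call of mt-Rnr1 ended with library totals alone, without the 4 libraries whose labels conflict, and with those grouped by library name, a grouping that the WPRE and Atxn2 levels go against. The count was 4 without amiR replicate 2, and 2 without WT replicate 6, Tg replicate 4 or amiR replicate 3. Relative to the summed mRNAs, mt-Nd6 was the only member called, higher by 0.39 (SE 0.12, adjusted p = 0.024), where 18.1% of genes changed, and not without sex in the fit. Summed neuron markers averaged 5729 CPM in Tg and 8137 CPM in WT cord, with 8 of 11 lower, and microglia markers averaged 638 CPM in Tg and 191 CPM in WT cord, with 7 of 8 higher. Their part in the result was not tested.

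Treated cord had more mt-Nd5, the largest mitochondrial subunit of complex I. It had 6282 to 9073 CPM (median 6708) in amiR, 4748 to 6432 CPM (median 5467) in Tg and 5417 to 6251 CPM (median 5733) in WT cord. amiR and Tg cord overlapped through Tg replicate 6, and all 6 amiR libraries lay above all WT libraries. The difference from Tg was 0.40 (SE 0.09, adjusted p = 0.0226), where 5.11% of all genes changed, and that from WT was 0.33 (SE 0.09, adjusted p = 0.0124), where 25.5% changed. No other member passed in either comparison, with 10 members at an unadjusted p under 0.05 and a median of 0.30 against Tg, and 6 members and a median of 0.21 against WT. mt-Nd3 came nearest, at 0.52 in amiR against Tg cord (SE 0.15, adjusted p = 0.0517). Summed neuron markers averaged 6509 CPM in amiR, 5729 CPM in Tg and 8137 CPM in WT cord, and microglia markers 486 CPM in amiR, 638 CPM in Tg and 191 CPM in WT cord. Of these lists 4 of 11 neuron markers were higher and 1 of 8 microglia markers lower in amiR than in Tg cord, while 6 of 11 neuron markers were lower and 7 of 8 microglia markers higher in amiR than in WT cord. Their part in the mt-Nd5 differences was not tested.

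These calls were fragile. Against Tg cord no member was called with the integrity number as a covariate, without mice older than 36 weeks, or without Tg replicate 1, Tg replicate 5 or amiR replicate 4, while DESeq2 called 6. The count was 4 without amiR replicate 1, and 2 without amiR replicate 3, 5 or 6. Against WT cord none was called without the older mice, and 2 were without amiR replicate 5. Grouping the 4 conflicting libraries by library name, against their WPRE and Atxn2 levels, gave no call against Tg and 1 member, lower, against WT cord. amiR replicate 2 had the highest share of mitochondrial counts (11.8%), one of the conflicting labels, and 753.6 CPM of myofibre markers, where no Tg or WT cord library exceeded 232 CPM. Relative to the summed mRNAs no member was called between amiR and Tg cord, where 15.2% of genes changed, or between amiR and WT cord, where 13.7% did.

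In cortex no member was called in any of the 3 comparisons by edgeR or by DESeq2, and none had an unadjusted p under 0.05. All genes gave little more: 0.0247% were called between Tg and WT, 0.0197% between amiR and Tg, and 1.12% between amiR and WT cortex. mt-Rnr1 had 2985 to 4306 CPM (median 3852) in amiR, 3026 to 5115 CPM (median 4077) in Tg and 3940, 4260, 4090, 4674 and 4548 CPM in WT cortex, so the WT libraries lay within the Tg range. Its log2 differences were -0.15 for amiR minus Tg, -0.21 for amiR minus WT and -0.06 for Tg minus WT (SE 0.12 each), the farthest from 0 of the mRNAs and rRNAs being that for amiR minus WT. Relative to the summed mRNAs there was again no call, with 0.0197%, 0.0148% and 0.0542% of all genes called in the 3 comparisons.

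The transgene effect was then compared between tissues in the joint model, as the difference between tissues of Tg minus WT. It was higher in spinal cord than in muscle for mt-Rnr1 (0.86, SE 0.19, adjusted p = 0.000445), mt-Rnr2 (0.58, SE 0.16, adjusted p = 0.00426) and mt-Nd6 (0.55, SE 0.20, adjusted p = 0.0308), where 31.0% of genes changed. The rRNA values were below 0 in both tissues, while mt-Nd6 stood at 0.27 in spinal cord and -0.32 in muscle, neither called on its own. Its call ended without sex in the fit (0.52, adjusted p = 0.0821). The effect was higher in cortex than in muscle for mt-Rnr1 (1.07, SE 0.20, adjusted p = 4.56e-05), mt-Rnr2 (0.78, SE 0.17, adjusted p = 0.000268), mt-Nd1 (0.63, SE 0.18, adjusted p = 0.00687), mt-Nd2 (0.55, SE 0.19, adjusted p = 0.0219) and mt-Nd3 (0.53, SE 0.20, adjusted p = 0.0448), where 27.7% of genes changed. In cortex itself these 5 stood at -0.06 to 0.04. With library totals alone 2 members passed in each, mt-Rnr1 and mt-Rnr2. Between spinal cord and cortex none passed and none had an unadjusted p under 0.05, where 9.67% of genes changed. For the effect of treatment (amiR minus Tg) no member passed between any of the tissues, where 0.0672% (cord and cortex), 3.04% (cord and muscle) and 2.54% (cortex and muscle) of genes changed, and 9, 1 and 8 members had an unadjusted p under 0.05.

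**Figure D5:**
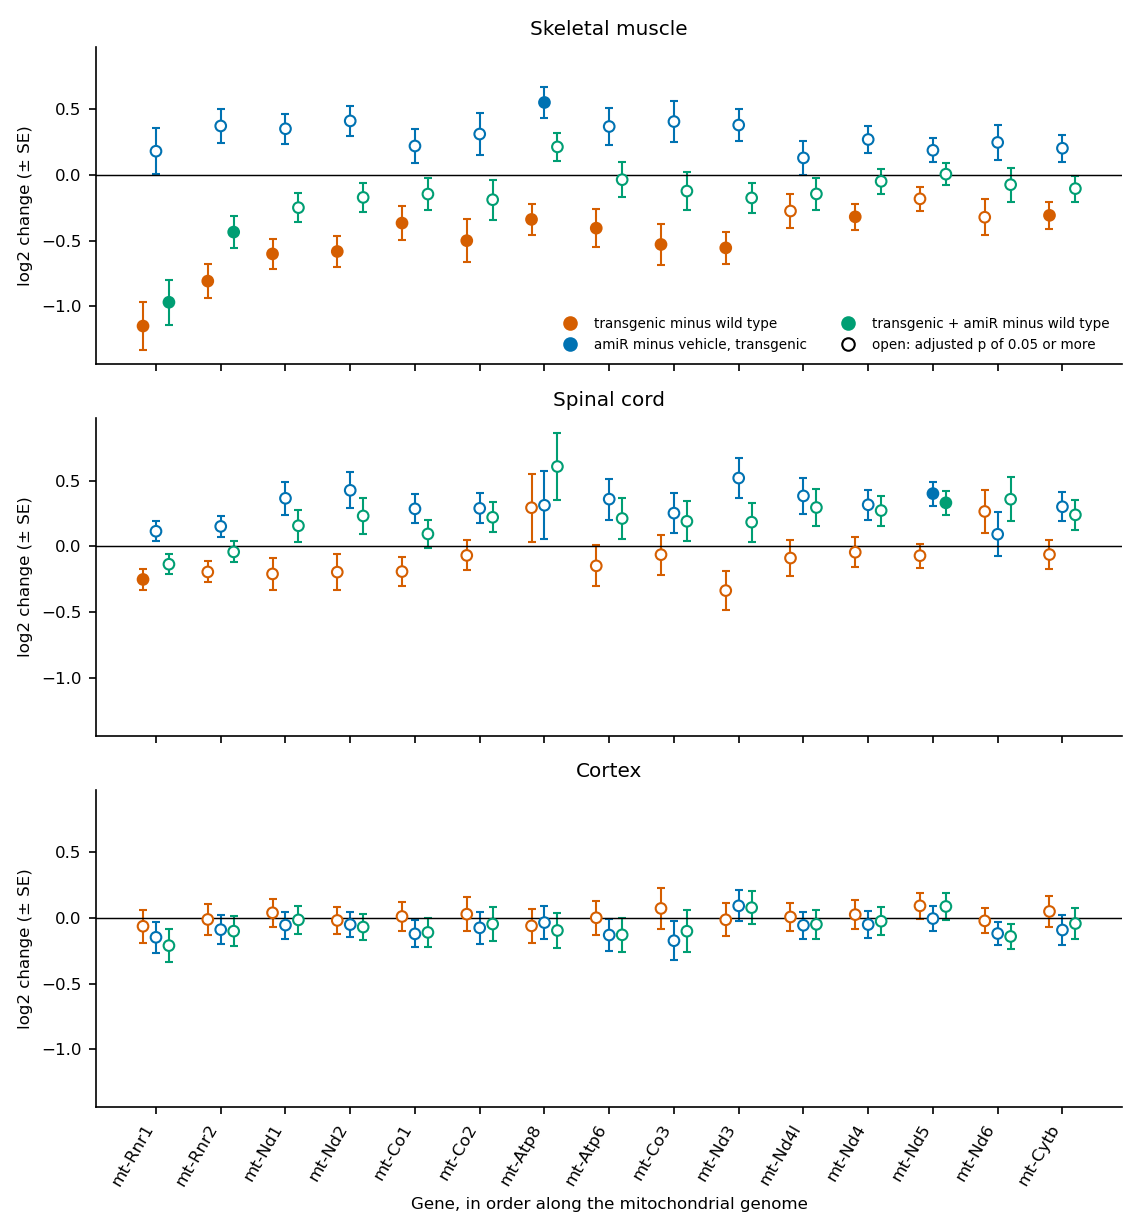
Log2 differences with standard errors for the 13 mRNAs and 2 rRNAs (vertical axis) in muscle, spinal cord and cortex for amiR minus Tg, amiR minus WT and Tg minus WT; the line at 0 marks no difference. mt-Rnr1 in muscle lies lowest, at -1.15 for Tg minus WT and -0.97 for amiR minus WT, and the cortex value farthest from 0 is -0.21.

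The nuclear genes that serve the mitochondrial genome were read beside the members. Of 86 nuclear subunits of oxidative phosphorylation tested in muscle, 80 were lower in Tg than in WT and none higher, with a median of -0.49, where 50.5% of all genes changed and 24.8% were lower. Library totals alone gave 28 lower and 4 higher. The lowest adjusted p among them belonged to the complex I subunits Ndufb4c (-0.79), Ndufb4 (-0.80), Ndufc1 (-0.62) and Ndufs7 (-0.75); the first pair may share reads. Of 78 mitoribosomal proteins 48 were lower and none higher (median -0.25), led by Mrpl42 (-0.82, SE 0.11), Mrps24 (-0.71, SE 0.11), Mrps15 (-0.49, SE 0.07) and Mrpl51 (-0.50, SE 0.08). For this list the direction turned with library totals alone, to 28 higher and 7 lower (median 0.09).

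Of 15 genes for transcription and replication of mitochondrial DNA, 7 were lower in Tg than in WT muscle and none higher (median -0.16), and the share called in either direction was near the 50.5% of all genes. Mgme1, a nuclease that trims mitochondrial DNA ends, was at -0.68 (SE 0.10, adjusted p = 3.12e-05), Tfb2m, a factor for the start of transcription, at -0.29 (SE 0.07, adjusted p = 0.00191), Polrmt, the mitochondrial RNA polymerase, at -0.28 (SE 0.07, adjusted p = 0.00244), and Dguok, a nucleoside kinase, at -0.38 (SE 0.09, adjusted p = 0.00284). Of 17 genes for processing and decay of the RNA, 9 were lower and 1 higher (median -0.21): Fastkd3 (-0.52, SE 0.07), Fastk (-0.47, SE 0.09), Tbrg4 (-0.40, SE 0.08) and Lrpprc, which stabilises mitochondrial mRNAs (-0.25, SE 0.05), led. Of 10 regulators of biogenesis 4 were lower and 1 higher, again near the share of all genes called: the nuclear receptor Esrra was at -0.59 (SE 0.11), the coactivator Ppargc1a at -0.50 (SE 0.12), Yy1 at -0.17 (SE 0.05), and Gabpb1, a subunit of the factor NRF-2, at 0.35 (SE 0.06). With library totals alone these 3 lists turned, to 7 higher and 1 lower, 8 higher and 1 lower, and 6 higher and 1 lower. Between amiR and Tg muscle no gene of the 5 lists was called.

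In spinal cord 10 of the 17 processing genes were lower in Tg than in WT cord and none higher (median -0.16), where 36.8% of all genes changed in either direction, and with library totals alone 5 were lower and 1 higher. Fastkd3 was at -0.38 (SE 0.07, adjusted p = 0.000356), Fastkd5 at -0.45 (SE 0.08, adjusted p = 0.000469), Lrpprc at -0.33 (SE 0.06, adjusted p = 0.000735) and Grsf1, an RNA granule protein, at -0.26 (SE 0.05, adjusted p = 0.00101). In amiR against Tg cord 2 of the 17 were higher, Lrpprc (0.36, SE 0.06, adjusted p = 0.00789) and Pde12, a deadenylase (0.17, SE 0.05, adjusted p = 0.0445). Of the 86 nuclear respiratory subunits, 17 were lower and 2 higher in Tg than in WT cord, a smaller share than the 36.8% of all genes, and 11 were higher and 1 lower in amiR than in Tg cord, where 5.11% of all genes changed. Those 11 fell to none with the conflicting libraries grouped by library name and without mice older than 36 weeks. In cortex the only call in the 5 lists was Ndufb2, lower in amiR than in WT mice.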

How the data were processed

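The authors deposited 1 table of expected counts per gene for 52 libraries, as RSEM gives them, over mouse genes and added human and vector rows on GRCm38 and GRCh38. Per the labels, RNA from tissue powder was made into poly(A) libraries and sequenced in pairs of 100-base reads, and the submitters' processing notes name DESeq2 1.34.0, RSEM 1.3.2, STAR 2.7.2d and bcl2fastq 2.20. Of 55401 mouse rows 55141 had a symbol in GENCODE M21, and 92 spike-in rows were left out. Counts were rounded to whole numbers. In each tissue all 3 groups were fitted with edgeR 4.0.16 (R 4.3.3, quasi-likelihood F test, TMM, filterByExpr, group and sex as terms), with p-values adjusted over all genes by Benjamini-Hochberg and a threshold of 0.05. A joint model over the 52 libraries gave contrasts between tissues. TMM sets the typical gene to no change, so a member's difference is relative to that gene. Levels per length used unscaled CPM and gene length. Nuclear rows near-identical to a member were found with BLAST+ 2.17.0 (identity at least 95% over at least 50% of the row).

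Groups came from sample titles. The labels do not say whether replicates with like numbers share an animal, and they were not paired. Nothing beyond separate replicate numbers says that the libraries came from separate animals, so the p-values measure the spread between these libraries. Replicates differed by more than sampling noise. The members, gene lists and tests were chosen with earlier results of these data known. All 37 members are accounted for, the mRNAs and rRNAs by name, and of each nuclear list the counts and up to 4 genes with the lowest adjusted p; genes of the 3 shorter lists beyond these were named after their values were seen. The scripts were tested on simulated data. Alternatives tried were DESeq2 1.42.0, other scalings, no filter, fits without sex or with integrity number, leaving out libraries, adding the nuclear rows, and grouping 4 spinal cord libraries by library name.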

Additional observations from a re-analysis of the deposited data

Results flagged for a closer look

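In 6 of 144 groups of libraries 1 library stood far from the others, and chance gives about 1 in 20. These were, in TMM-scaled CPM, mt-Rnr1 in amiR spinal cord replicate 3 (1947, nearest 2543), mt-Nd6 in amiR spinal cord replicate 2 (331.6, nearest 175.4), mt-Nd1 in WT spinal cord replicate 1 (9152, nearest 8370), mt-Nd6 in amiR cortex replicate 2 (212.8, nearest 170.4), mt-Co3 in WT cortex replicate 1 (2718, nearest 4448) and mt-Nd5 in WT cortex replicate 4 (5274, nearest 5967).

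The transgene effect (Tg minus WT) differed between tissues by the joint edgeR model. For spinal cord minus muscle the difference was 0.86 for mt-Rnr1, 0.58 for mt-Rnr2 and 0.55 for mt-Nd6. For cortex minus muscle it was 1.07 for mt-Rnr1, 0.78 for mt-Rnr2, 0.63 for mt-Nd1, 0.55 for mt-Nd2 and 0.53 for mt-Nd3. Tg and WT muscle also differed in the summed stroma and immune markers (1106 to 2104 CPM in Tg, 243 to 753 CPM in WT), as did spinal cord (217 to 451 CPM in Tg, 96.3 to 153 CPM in WT), while cortex did not separate there (142 to 229 CPM in Tg, 127 to 201 CPM in WT), and their part in the difference was not tested.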

How the results depend on the processing

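Counts of members called, given in the order of the main value and then the alternative, moved as follows, and the cause was not tested. In muscle Tg minus WT, 12 became 4 with library totals alone, 7 without sex and 5 with the integrity number, and 7 to 15 when 1 library was left out. With library totals alone mt-Nd4 (0.015), mt-Nd5 (0.15), mt-Nd6 (0.0087), mt-Cytb (0.027) and mt-Nd4l (0.056) changed sign there, and mt-Rnr1 did so in WT muscle minus spinal cord (-0.0054). In muscle amiR minus Tg, 1 became 6 with DESeq2, 2 with the integrity number, 0 without sex, without mice older than 36 weeks or with a replicate block, and 0 to 3 with 1 library left out. In muscle amiR minus WT, 2 became 4 with library totals alone (3 higher) or without the older mice, 1 with the integrity number, and 2 to 4 with 1 library left out. In spinal cord Tg minus WT, 1 became 2 with DESeq2 or without the older mice, 0 with library totals alone, without the 4 conflicting libraries or with those by library name, and 1 to 4 with 1 left out. In spinal cord amiR minus Tg, 1 became 6 with DESeq2, 2 with TMM computed without the members or without sex, 0 with the integrity number, without the older mice or by library name, and 0 to 4 with 1 left out. In spinal cord amiR minus WT, 1 became 3 with library totals alone, 0 without the older mice, 2 without the conflicting libraries, 1 lower member by library name, and 1 to 2 with 1 left out. Cortex kept 0 throughout these settings. Relative to the summed mRNAs, spinal cord Tg minus WT became 0 without sex and muscle amiR minus Tg became 1 with the nuclear copies. For the transgene effect in cortex minus muscle, 5 became 2 with library totals alone, and in spinal cord minus muscle 3 became 2 with library totals alone or without sex. The grouping by library name goes against the WPRE and Atxn2 levels of the 4 libraries.

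With the nuclear copies added, the mitochondrial share averaged 24.9% in amiR, 23.0% in Tg and 24.1% in WT muscle, 11.3% in amiR, 9.52% in Tg and 9.79% in WT spinal cord, and 10.4% in amiR, 11.2% in Tg and 10.8% in WT cortex. Atxn2 in amiR minus Tg was -0.28 in spinal cord by library name (adjusted p = 0.379), -0.27 in cortex with DESeq2 (adjusted p = 0.0397), and in muscle -0.10 with library totals alone, -0.017 without the older mice and -0.012 (without amiR replicate 2) to 0.068 with 1 library left out. The replicate block, with like numbers in the 3 groups, gave 11 members in muscle Tg minus WT. Deviations of like-numbered libraries correlated at -0.21 to 0.42 in muscle, -0.12 to 0.30 in spinal cord and -0.30 to 0.49 in cortex. Both set different groups of the same tissue side by side, so they cannot show whether tissues shared animals. The joint model took the 52 libraries as separate samples, and sharing of animals between tissues was not tested. Leaving out single libraries was not run for the joint fit and the fits relative to the summed mRNAs. Low counts limit what can be said of the tRNAs, with mt-Ts1 at 8 to 125 counts per library.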
